A study of Sus scrofa with 18 samples.

Results

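Acetylation of histone H3 at lysine 27 (H3K27ac) was compared between the inner circular and the outer longitudinal muscle of the pig uterus on day 15 of pregnancy. Members were chosen by label. They were the 4 of 18 libraries made with the H3K27ac antibody from circular muscle (GD15M_CM, 2 gilts) and longitudinal muscle (GD15M_LM, 2 gilts). All were Yorkshire gilts bred by natural mating, sampled on the mesometrial side of the uterus. Nuclei were released from frozen, powdered tissue and profiled by CUT&Tag, in which an antibody directs a transposase to cut and tag the DNA around the mark, with IgG as the control. The submitters pooled both gilts of a layer before they called peaks, so each layer was 1 list, with 79877 peaks in GD15M_CM and 57010 in GD15M_LM. Circular muscle from day 15 of the estrous cycle (CD15M_CM, 2 gilts) and the H3K4me3 libraries of both pregnant layers are given only beside results.

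The myometrium is smooth muscle that contracts when calcium rises in the cell and the myosin light chain is phosphorylated. Receptors for acetylcholine, noradrenaline, oxytocin and prostaglandins set that calcium, and in the pig the inner layer borders the endometrium with its luminal and glandular epithelium. H3K27ac marks active promoters and active enhancers, and long runs of it are often found over genes that define a cell type, whereas H3K4me3 is mostly found at promoters.

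Each peak had a fold enrichment over IgG. Because the lists differed in size and scale (median fold enrichment 3.49 in GD15M_CM and 3.79 in GD15M_LM), the fold enrichment was turned into a percentile from 0 to 100 within its own list. A gene's rank was the highest percentile of the peaks within 3 kb of either of its annotated ends, with 0 for no peak. Either end could be the promoter because the annotation used here (RefSeq, Sscrofa11.1) gave no strand. A gene's acetylated length was the number of bases under peaks over the gene and 3 kb on both sides. A gene was called when its ranks differed by at least 25 points, or when its acetylated lengths differed by at least 2-fold and at least 2 kb. With 1 pooled list per layer there was no spread between animals and no test, and the intervals below are 95% Wilson intervals that cover counting error only. Read depth is not given in the peak lists. In bulk tissue, more cells of a type and more acetylation per cell cannot be told apart.

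The tissue label was checked against smooth muscle genes. All 25 genes of the contractile apparatus had acetylated bases in both layers, among them MYH11, the smooth muscle myosin heavy chain (19.2 kb in GD15M_CM and 30.8 kb in GD15M_LM), and ACTA2, smooth muscle actin (5.93 and 8.86 kb). Of the immune cell markers, CD3E and CD3D of T cells and CD163, C1QA and MRC1 of macrophages had no H3K27ac peak in either list. Others had peaks, among them CD3G (67.2 in GD15M_CM only), CD68 (96.7 in GD15M_CM and 94.4 in GD15M_LM), TYROBP (98.8 and 78.7) and SPI1 (91.4 and 89.8). Epithelial genes were acetylated mainly in GD15M_CM, and their values are given below.

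On the named chromosomes GD15M_CM held 78875 peaks over 67.3 Mb and GD15M_LM held 56179 peaks over 52.2 Mb. GD15M_CM had 28728 peaks within 3 kb of a gene end, and GD15M_LM had 22753. These were longer than distal peaks in both layers, with medians of 768 and 443 bases in GD15M_CM and 910 and 500 bases in GD15M_LM. Distal peaks held 49.5% of the acetylated bases of GD15M_CM and 47.0% of those of GD15M_LM. Most distal peaks lay inside genes, 37737 of 50147 in GD15M_CM and 24928 of 33426 in GD15M_LM.

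The layers shared acetylation near gene ends more than away from them. Near gene ends, 33.3% of the GD15M_CM peaks (95% interval 32.8 to 33.8%) and 15.96% of the GD15M_LM peaks (15.5 to 16.4%) overlapped no peak of the other layer. Among distal peaks these shares were 56.2% (55.8 to 56.7%) and 35.4% (34.9 to 35.9%). Which layer had the larger share changed with the peaks compared. When the GD15M_CM list was cut to its 56179 peaks of lowest p-value, the shares were 25.1% against 23.0% near gene ends and 49.1% against 46.8% for distal peaks. When it was cut further to the same number of bases (43357 peaks), GD15M_LM had the larger shares, 28.4% against 18.9% near gene ends and 55.2% against 43.1% for distal peaks. Distal peaks were the less shared class in both layers under all 3 choices of peaks.

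Peaks without a partner were short and of low rank near gene ends. Their median length there was 365 bases in GD15M_CM and 364 bases in GD15M_LM, against 1254 and 1093 bases for peaks with a partner. In the highest decile of ranks, 2.95% of the GD15M_CM peaks near gene ends and 0.52% of those of GD15M_LM had no partner. At the same ranks, 22.3% of the distal peaks of GD15M_CM and 4.89% of those of GD15M_LM had none. These shares are of the full lists, in which the longer GD15M_CM list leaves more peaks without a partner, and they were not computed with equal lists.

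**Figure D1:**
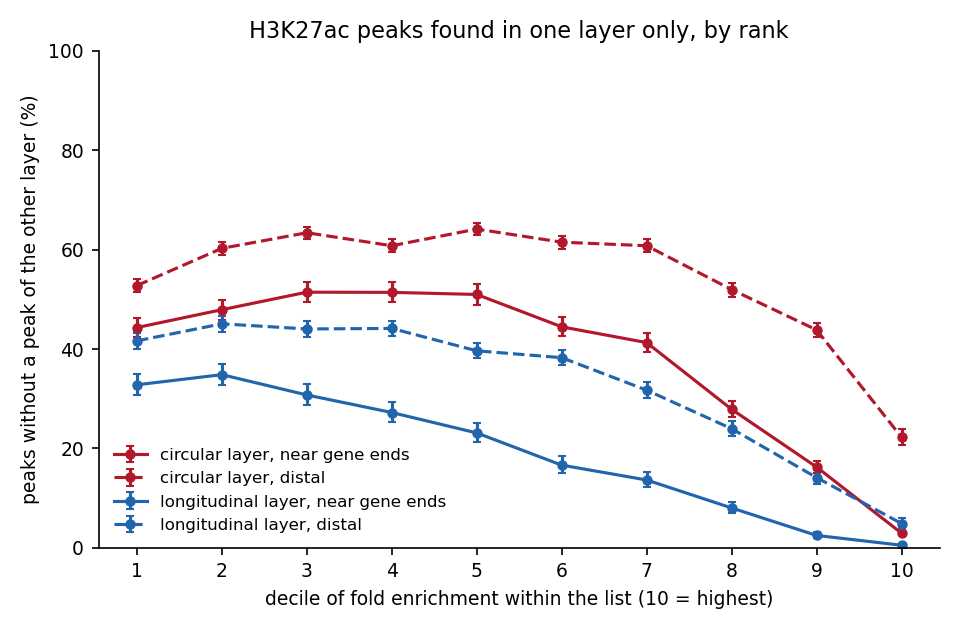
Share of H3K27ac peaks (percent) that overlap no peak of the other layer, by decile of fold enrichment within the list, for GD15M_CM (red) and GD15M_LM (blue), near gene ends (solid) and distal (dashed). Bars are 95% Wilson intervals. In the highest decile the shares fall to 2.95% and 0.52% near gene ends, while 22.3% of the GD15M_CM distal peaks still have no partner.

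Peaks of 1 layer only were set beside lists that had no part in choosing them. Of the distal GD15M_LM peaks without a partner, 64.3% (7617 of 11840) overlapped a peak of CD15M_CM. Of the distal GD15M_CM peaks without a partner, 39.1% (11019 of 28206) did so. Peaks with a partner overlapped a CD15M_CM peak at 92.6% (GD15M_LM) and 92.7% (GD15M_CM). Peaks of the longitudinal layer alone were thus often present in cyclic circular muscle. The CD15M_CM list was longer than both others (81003 peaks over 74.3 Mb on the named chromosomes), and these overlaps were not computed with equal lists. Of the distal peaks without a partner, 7.78% in GD15M_CM and 10.4% in GD15M_LM overlapped an H3K4me3 peak of the same layer, against 22.1% and 31.3% of those with a partner.

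By rank near gene ends, 3297 of 17491 genes (18.8%) were called higher in GD15M_CM and 2214 (12.7%) higher in GD15M_LM. The direction of this balance depended on the peaks compared. With equal numbers of peaks the shares were 14.4% and 20.6%, and with equal bases they were 11.4% and 27.2%. The median difference over all genes, GD15M_CM minus GD15M_LM, was 2.38 points with the full lists and fell to -1.44 and -5.53 points with the equal lists. All 2214 genes called for GD15M_LM stayed called because only the other list was cut, whereas 1917 of the 3297 genes called for GD15M_CM stayed called under both cuts. The remaining GD15M_CM peaks were ranked again among fewer peaks, while each gene kept its GD15M_LM rank. The median GD15M_CM rank over genes fell from 84.2 to 78.8 and 73.1. A shift of ranks toward GD15M_LM is thus built into the equal lists, and their values are read against those of all genes. The genes next to the threshold were KLHDC4 (25.0017 points higher in GD15M_CM, called) and GLRX2 (24.9998, not called), and IRS2 (-25.02, called) and PHF19 (-24.99, not called).

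By acetylated length, 1632 of 18567 genes (8.79%) were called longer in GD15M_CM and 294 (1.58%) longer in GD15M_LM. With equal numbers of peaks these shares were 6.02% and 2.75%, and with equal bases they were nearly even at 4.5% and 4.31%. For the distal part of the length, 969 of 8024 genes (12.1%) were called for GD15M_CM and 242 (3.02%) for GD15M_LM. With equal numbers of peaks these shares were 8.57% and 5.49%, and with equal bases GD15M_LM had the larger share, 8.33% against 6.55%. Genes called by length were long ones, with a median size of 40.3 kb for GD15M_CM and 93.6 kb for GD15M_LM against 22.2 kb for all genes with a peak. Rank and length were different quantities. Only 475 genes were called for GD15M_CM by both and 135 for GD15M_LM by both, and 62 genes ranked higher in GD15M_LM were longer in GD15M_CM.

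**Figure D2:**
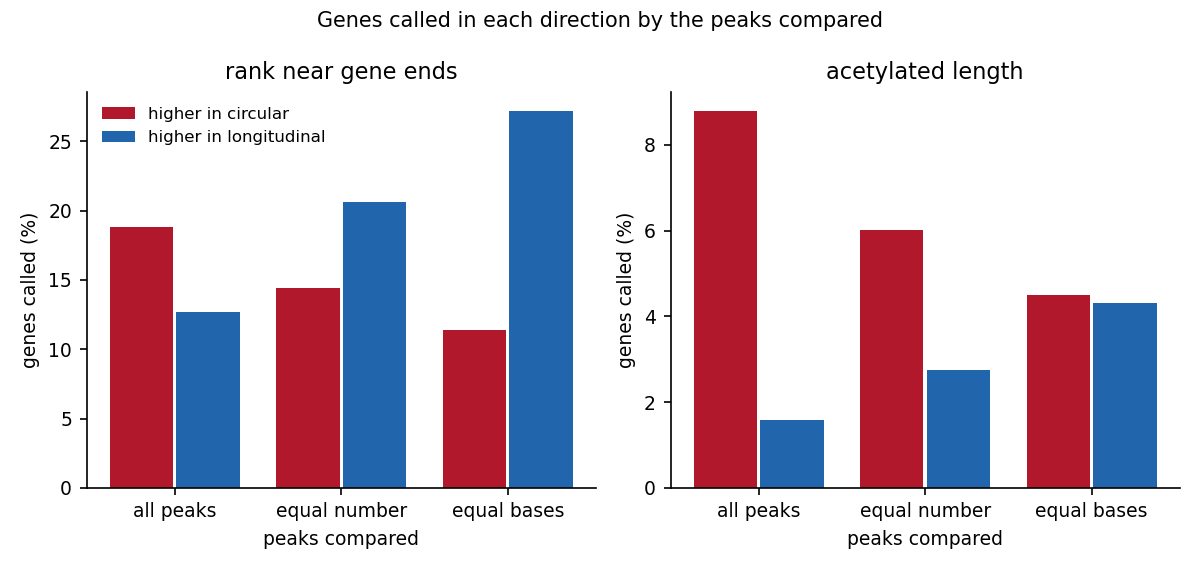
Share of genes (percent) called higher in GD15M_CM (red) or GD15M_LM (blue) by rank near gene ends (left) and by acetylated length (right), for all peaks, equal numbers of peaks and equal numbers of bases. By rank the larger share passes from GD15M_CM (18.8% against 12.7%) to GD15M_LM (27.2% against 11.4%), and by length the shares become nearly even (4.5% and 4.31%).

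H3K4me3, which was not used to call these genes, differed in the same direction at most of them. Of the genes ranked higher in GD15M_CM by H3K27ac that had an H3K4me3 peak near an end, 76.0% of 2647 also had the higher H3K4me3 percentile in GD15M_CM. Of those ranked higher in GD15M_LM, 76.3% of 1927 had the higher H3K4me3 percentile in GD15M_LM. Over all 15863 genes with both marks the share with more H3K4me3 in GD15M_CM was 52.4%. For genes called by length, 66.8% of 1446 (GD15M_CM) and 80.7% of 233 (GD15M_LM) had the higher H3K4me3 percentile in the layer with the longer acetylation. The H3K4me3 libraries carry the same layer and day labels as the H3K27ac libraries.

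By acetylated length with the full lists, the cyclic circular muscle lay between the layers for one direction and beside the longitudinal layer for the other. The CD15M_CM list was the longest, with 74.3 Mb against 67.3 Mb in GD15M_CM and 52.2 Mb in GD15M_LM. No comparison with CD15M_CM was repeated with equal lists, so the part of list size in these values was not tested. The 294 genes longer in GD15M_LM had median acetylated lengths of 1.55 kb in GD15M_CM, 4.94 kb in GD15M_LM and 5.49 kb in CD15M_CM, and CD15M_CM was nearer to GD15M_LM at 275 of them. The 1632 genes longer in GD15M_CM had medians of 5.61, 1.88 and 3.83 kb, and CD15M_CM was nearer to GD15M_CM at 798 and nearer to GD15M_LM at 834. By rank, CD15M_CM was nearer to GD15M_CM at 60.9% of the genes called for GD15M_CM and nearer to GD15M_LM at 69.8% of those called for GD15M_LM. With 1 pooled list per group, a layer difference and a departure of GD15M_CM from both other lists cannot be told apart at such genes. The CD15M_CM value is therefore given beside many of the genes below.

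Among genes called by length, those with the largest differences toward GD15M_CM were NEDD4L, JAZF1, PITPNC1, SNTB1, COBL, SORL1, STX18 and JARID2. NEDD4L, a ubiquitin ligase that acts on the epithelial sodium channel, had 60.4 kb in 90 peaks in GD15M_CM, 8.86 kb in 12 peaks in GD15M_LM and 37.7 kb in CD15M_CM. PITPNC1, a phosphatidylinositol transfer protein, had 52.3 kb in 70 peaks, 3.53 kb in 4 peaks and 15.9 kb. SNTB1, a syntrophin of the dystrophin complex, had 53.5 kb in 87 peaks, 4.97 kb in 5 peaks and 26.4 kb. At all 3 genes the GD15M_CM length was the longest and the GD15M_LM length the shortest. JAZF1, a zinc-finger protein of a chromatin complex, was long in all lists, with 81.7, 32.1 and 68.5 kb. COBL, an actin nucleator, had 46.4, 6.03 and 20.03 kb, and SORL1, a sorting receptor of endosomes, had 38.9 kb in 59 peaks against 0.863 kb in 1 peak of GD15M_LM and 4.68 kb in CD15M_CM. STX18, a SNARE protein of the endoplasmic reticulum, had 46.5, 8.80 and 28.3 kb, and JARID2, a partner of Polycomb complex PRC2, had 50.3, 13.0 and 35.1 kb. SORL1 had the largest ratio of these 8 genes, 45.1-fold. The same 8 genes led by distal length, from 37.0 kb (SORL1) to 77.0 kb (JAZF1), so most of the difference lay more than 3 kb from a gene end.

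The ranks near the ends of several of these genes hardly differed. At PITPNC1 (chromosome 12, 13741195 to 14019694) the percentiles near the ends were 99.9 in GD15M_CM and 95.2 in GD15M_LM, and at SNTB1 (chromosome 4, 18288756 to 18524362) they were 99.5 and 96.7. At JAZF1 (chromosome 18, 44488530 to 44827101) they were 97.4 and 97.7. SORL1 (chromosome 9, 48435350 to 48653670) was at 84.3 and 0. SORL1 had no H3K4me3 peak near its ends in either layer. JARID2 (chromosome 7, 11358243 to 11601715) was at 96.8 and 28.2. Its rank in GD15M_LM leaves out a peak at percentile 96.7 that began just past the 3 kb window (11361614 to 11363416). A GD15M_CM peak overlapped that peak, also past the window, and the H3K4me3 percentiles of JARID2 were 94.6 and 98.0. The length differences of PITPNC1, SNTB1 and JAZF1 thus came with ends that were strong in both layers, unlike that of SORL1. The annotation gave no exons, so peaks inside genes were not divided into exonic and intronic ones.

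Among genes called by length, which asks for a 2-fold difference, those with the largest differences toward GD15M_LM were SCUBE1, SMOC2, PPARGC1B, FHL1, TMOD1, MGLL, WWOX and KCNH2. FHL1, a LIM-domain protein of muscle on chromosome X (111309989 to 111367900), had 24.7 kb in GD15M_LM, 6.78 kb in GD15M_CM and 24.7 kb in CD15M_CM. TMOD1, which caps the pointed ends of actin filaments, had 24.8, 7.56 and 32.6 kb. SMOC2, a calcium-binding protein of the extracellular matrix, had 59.4, 26.7 and 57.4 kb. At these 3 genes the cyclic circular muscle was close to the longitudinal layer or above it, and GD15M_CM was the lowest. SCUBE1, a secreted and cell-surface protein, had 54.5 kb in GD15M_LM against 19.2 kb in GD15M_CM, PPARGC1B, a coactivator of mitochondrial genes, had 43.5 against 21.7 kb, and MGLL, which hydrolyses monoacylglycerols, had 25.8 against 9.46 kb. WWOX, an oxidoreductase with WW domains, had 20.5 against 4.98 kb, and KCNH2, a potassium channel, had 23.8 against 8.73 kb. For the 5 last named genes CD15M_CM had 56.6, 42.8, 31.6, 23.3 and 23.0 kb in that order. By distal length DIP2C (51.3 against 25.5 kb) and TSPAN18, a tetraspanin (37.3 against 18.1 kb), joined the list, although their total lengths differed by only 1.97-fold and 1.84-fold.

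**Figure D3:**
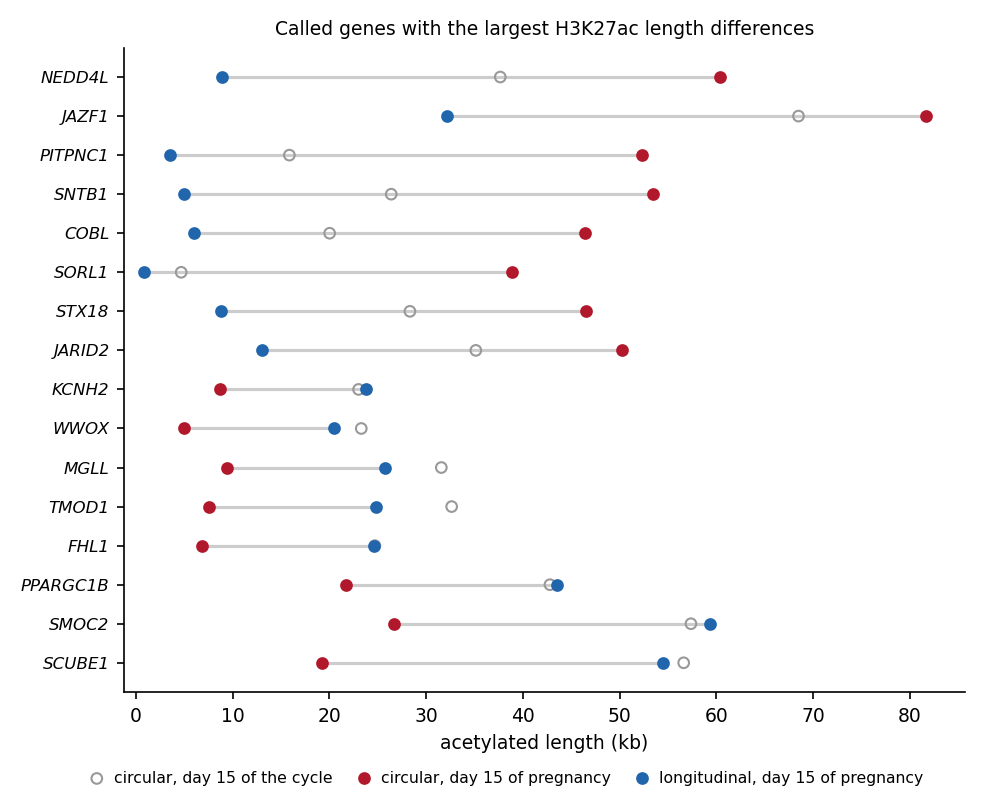
Acetylated length (kb) over the gene and 3 kb on both sides for the 8 genes with the largest differences in each direction among those called, with at least 2-fold. Red is GD15M_CM, blue GD15M_LM and the open circle CD15M_CM. For the 8 genes longer in GD15M_LM the open circle lies close to the blue point or beyond it (SCUBE1 56.6 against 54.5 kb), and for the 8 genes longer in GD15M_CM it lies between the layers.

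By rank near the ends the leading genes of GD15M_CM were ABCC11, CCDC65, SLC15A2, KCTD4, UBR1, RCSD1, RBM47 and HEMGN. SLC15A2, a peptide transporter, carried a peak of 933 bases (chromosome 13, 138631828 to 138632760) at percentile 96.3 with no GD15M_LM peak over it. RBM47, an RNA-binding protein, carried a peak of 1246 bases (chromosome 8, 31688854 to 31690099) at percentile 94.9, and had 28 peaks over 14.7 kb in GD15M_CM, none in GD15M_LM and 2.76 kb in CD15M_CM. KCTD4 (chromosome 11, 22074924 to 22075683) was at percentile 95.04, and UBR1, a ubiquitin ligase, carried a peak at percentile 94.98 at its lower end (chromosome 1, 128319195 to 128319811). None of these 4 peaks had a GD15M_LM peak over it. At the other 4 genes GD15M_LM had an overlapping peak that lay outside the 3 kb windows. The GD15M_LM peak over that of HEMGN, a nuclear protein of blood cells, was at percentile 96.2 against 94.2 in GD15M_CM, so the layers did not differ there in the way the gene's rank of 0 reads. For ABCC11, a transporter, the overlapping peak was at 90.5 against 98.8, for RCSD1, which binds a capping protein of actin, at 78.2 against 94.9, and for CCDC65, a protein of motile cilia, at 59.1 against 97.6. In the order first listed, the ranks of the 8 genes in CD15M_CM were 94.6, 93.9, 88.4, 34.0, 78.9, 95.3, 87.5 and 86.9.

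By rank the leading genes of GD15M_LM were RORB, ELMOD1, FHL1, NR3C2, SLC25A36, KDM5C, FAM76B and CEP57. RORB, an orphan nuclear receptor, carried a peak of 680 bases (chromosome 1, 227574210 to 227574889) at percentile 97.6 and had no peak in GD15M_CM. ELMOD1, a regulator of small GTPases, carried a peak of 1239 bases (chromosome 9, 36142078 to 36143316) at percentile 96.8 and had none in GD15M_CM, and the end peak of FHL1 (chromosome X, 111309140 to 111311110) was at 96.0. The CD15M_CM percentiles of RORB, ELMOD1 and FHL1 were 98.5, 46.5 and 45.4. These 3 ends were acetylated in GD15M_LM and had no peak in GD15M_CM.

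The other 5 genes had a peak in both layers and differed in fold enrichment. SLC25A36, a mitochondrial nucleotide carrier, had a peak of 1869 bases and 2.43-fold in GD15M_CM (percentile 5.98) and of 1956 bases and 10.3-fold in GD15M_LM (percentile 99.6). NR3C2, the mineralocorticoid receptor, had a peak of 4475 bases at percentile 0.609 in GD15M_CM and of 4294 bases at percentile 94.9 in GD15M_LM. KDM5C, an H3K4 demethylase, was at 3.86 and 97.1. FAM76B and CEP57, a centrosomal protein, share 1 peak between them, at 2.49 and 95.4. Ranked by -log10 p instead, the GD15M_CM peaks of these genes were at percentiles 25.3 (NR3C2) to 46.0 (SLC25A36) and those of GD15M_LM at 93.6 (KDM5C) to 99.9 (SLC25A36). The GD15M_CM peak was about as long as that of GD15M_LM or longer at all 5 genes (3186 against 1694 bases at KDM5C), so the difference was one of enrichment, not of extent. Their H3K4me3 percentiles were lower in GD15M_CM at all 5, for example 60.4 against 81.7 at NR3C2. The H3K27ac ranks in CD15M_CM were 10.7 at NR3C2, 76.9 at SLC25A36, 81.7 at KDM5C and 91.7 at FAM76B and CEP57.

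Single distal peaks without a peak of the other layer within 1 kb numbered 22714 in GD15M_CM and 8519 in GD15M_LM. The strongest of GD15M_CM, 353 bases at percentile 99.3 (chromosome 3, 51542284 to 51542636), lay inside SLC9A2, a sodium/hydrogen exchanger, 6.49 kb from its nearer end. Peaks at percentile 98.6 lay inside MECOM, a zinc-finger transcription factor (chromosome 13, 107817800 to 107818524), and inside PRDM2, a histone methyltransferase (chromosome 6, 73185514 to 73186145). The SLC9A2 peak had no CD15M_CM peak over it, while those in MECOM and PRDM2 had one over 606 and 632 of their bases. The strongest of GD15M_LM, 698 bases at percentile 98.5 (chromosome 5, 24273082 to 24273779), lay in no annotated gene, 140.5 kb from the nearest protein-coding gene end. The others were inside ANO6, a phospholipid scramblase (percentile 98.1, chromosome 5, 76140575 to 76141274), LTBP1, which binds latent TGF-beta in the matrix (97.0, chromosome 3, 106570561 to 106570943), and HS3ST5, a heparan sulfate sulfotransferase (96.8, chromosome 1, 79992519 to 79993951). All 4 GD15M_LM peaks were overlapped by a CD15M_CM peak.

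Genes were then grouped by 16 lists of muscle, receptor, immune and cell type genes. In the contractile apparatus, 5 of 24 genes with a peak near an end were called higher in GD15M_LM (all genes 12.7%) and 2 in GD15M_CM (18.8%). The 5 were MYLK, SYNM, DES, FLNA and ITGA8. MYLK, the myosin light chain kinase, had no peak near its ends in GD15M_CM and percentile 74.2 in GD15M_LM, with 48.8 kb and 70.9 kb of acetylation. SYNM, an intermediate filament protein, was at 58.7 and 95.6 and had 3.19 and 8.58 kb, the only contractile gene called longer in GD15M_LM with the full lists. With equal numbers 2 were called longer there, SYNM and MYH11 (all genes 2.75%). With equal bases 5 were (all genes 4.31%), ACTA2, MYLK and FLNA being added. DES, desmin, was at 68.5 and 94.3, FLNA, filamin A, at 36.5 and 87.2, and ITGA8, an integrin of smooth muscle, at 63.5 and 98.1. MYH11 (96.6 in GD15M_CM and 68.0 in GD15M_LM) and PDLIM7, a cytoskeletal scaffold (89.7 and 54.7), were called the other way by rank, while MYH11 was 1.60-fold longer in GD15M_LM. TPM1, tropomyosin 1, was longer in GD15M_CM, 20.2 against 8.78 kb. Its length call was lost with equal bases, where its rank (72.6 against 84.5 with the full lists) was called for GD15M_LM. The list median difference was -1.03 points against 2.38 over all genes. With equal numbers of peaks 8 genes were called by rank for GD15M_LM (all genes 20.6%) and 2 for GD15M_CM (14.4%). The list median there was -5.80 points (all genes -1.44). With equal bases 9 (all genes 27.2%) and 2 (11.4%) were called, and the list median was -10.4 points (all genes -5.53).

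MYL9, the regulatory myosin light chain, was at 73.8 in GD15M_CM and 90.2 in GD15M_LM with the full lists. PPP1R14A, which inhibits myosin phosphatase, was at 92.8 and 98.4, and SMTN, smoothelin, was at 94.8 and 80.2. None of these 3 was called, although MYL9 was called for GD15M_LM with the equal lists. There its GD15M_CM percentile fell to 63.2 (equal numbers) and 52.4 (equal bases), while that of GD15M_LM stayed at 90.2. H3K4me3 was higher in GD15M_LM at 18 of the 25 contractile genes, with median percentiles of 75.4 and 90.9.

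Among muscle transcription regulators, MYOCD, the coactivator that drives smooth muscle genes, was at 71.2 in GD15M_CM and 96.9 in GD15M_LM and had 3.65 against 10.2 kb, with 96.1 and 12.5 kb in CD15M_CM. GATA6, a factor of smooth muscle, was at 11.6 and 85.1, with 1.89 and 4.14 kb. These 2 regulators were higher and longer in GD15M_LM. MEF2A was also ranked higher in GD15M_LM, on 0.147 kb in that layer. Longer in GD15M_CM were TEAD1, a partner of YAP (43.9 against 13.8 kb), SMAD3, which carries TGF-beta signals (47.3 against 16.9 kb), and FOXO3 (24.3 against 9.48 kb). With equal bases TEAD1 and SMAD3 stayed called and FOXO3 did not. In all, 4 of 11 regulators with an end peak were called for GD15M_LM by rank (all genes 12.7%) and none for GD15M_CM (18.8%).

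Receptors that act on contraction showed the widest shift of the lists toward GD15M_LM. Of 19 receptor genes with a peak near an end, 10 were called higher in GD15M_LM (all genes 12.7%) and 1 in GD15M_CM (18.8%). Another 10 of the 29 had no end peak in either layer. ADRA2A, an alpha-2 adrenergic receptor, was at percentile 30.4 in GD15M_CM, 98.4 in GD15M_LM and 89.5 in CD15M_CM. CHRM3, the main muscarinic receptor of smooth muscle contraction, was at 40.5, 98.3 and 93.2 and had 2.52, 10.8 and 14.4 kb. PTGER3, a prostaglandin E2 receptor, was at 53.7, 99.2 and 85.0 and had 1.93, 5.41 and 6.79 kb. OXTR, the oxytocin receptor, had no peak in GD15M_CM, 1.05 kb at percentile 64.5 in GD15M_LM and 1.52 kb at 73.1 in CD15M_CM. At all 4 receptors the low value was that of GD15M_CM alone. The serotonin receptors HTR2A (53.8 and 90.1) and HTR7 (69.0 and 99.1), the adrenergic receptors ADRA1D (11.9 and 72.0) and ADRA2B (0 and 73.6), and the prostaglandin receptors PTGER2 (50.2 and 85.7) and PTGER4 (35.7 and 67.9) were also ranked higher in GD15M_LM. By length PTGER2 (5.58 against 3.43 kb) and PTGER4 (3.84 against 2.30 kb) were longer in GD15M_CM with the full lists, without a call. HRH1, the histamine H1 receptor, had no peak near its ends and was longer in GD15M_LM (23.4 against 9.59 kb). ADRA2C, at 49.9 with no peak in GD15M_LM, was the 1 receptor ranked higher in GD15M_CM, and EDNRA, an endothelin receptor, was longer there (4.03 against 1.52 kb), and neither call stayed with equal bases. The list median difference was -30.1 points (all genes 2.38). With equal numbers and equal bases it was -42.6 and -55.5 points (all genes -1.44 and -5.53).

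Genes of calcium and calmodulin signalling went both ways with the full lists. RYR3, a calcium release channel, had no peak in GD15M_CM and 4.202 kb at percentile 82.0 in GD15M_LM, and RYR2 had 1.49 against 5.43 kb. CAMKK1 and CAMKK2, kinases activated by calmodulin, were at 62.3 and 52.0 in GD15M_CM and at 96.3 and 84.6 in GD15M_LM. KCNMA1, the large-conductance potassium channel, was at 64.8 and 93.2 but had the longer acetylation in GD15M_CM, 69.3 against 44.5 kb. CACNB2, a calcium channel subunit, was longer in GD15M_LM (12.5 against 6.23 kb). CACNA1C, the pore of the L-type calcium channel, had 98.2 kb in GD15M_LM, 54.5 kb in GD15M_CM and 136 kb in CD15M_CM, and was called for GD15M_LM by length only with the equal lists. Its rank went the other way, 74.7 in GD15M_CM against 27.7. PLCB2 (60.0 against 22.1) and RGS4, which limits G-protein signals (89.8 against 14.4), were ranked higher in GD15M_CM, and ATP2A2, the calcium pump of the sarcoplasmic reticulum (9.93 against 3.11 kb), and ITPR3 (7.08 against 1.36 kb) were longer there. The call of PLCB2 was lost with both equal lists, and ITPR3 was called for GD15M_LM by rank with both. The phospholipases PLCB3 (82.1 in GD15M_CM and 90.7 in GD15M_LM) and PLCB4 (79.4 and 84.4) and the calcium release channel ITPR1 (85.2 and 73.2) were not called. In all, 4 of 23 genes were called for GD15M_LM and 3 for GD15M_CM by rank, shares near those of all genes (12.7% and 18.8%). With equal numbers of peaks 8 were called for GD15M_LM (all genes 20.6%) and 2 for GD15M_CM (14.4%). With equal bases 9 (all genes 27.2%) and 2 (11.4%) were called.

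**Figure D4:**
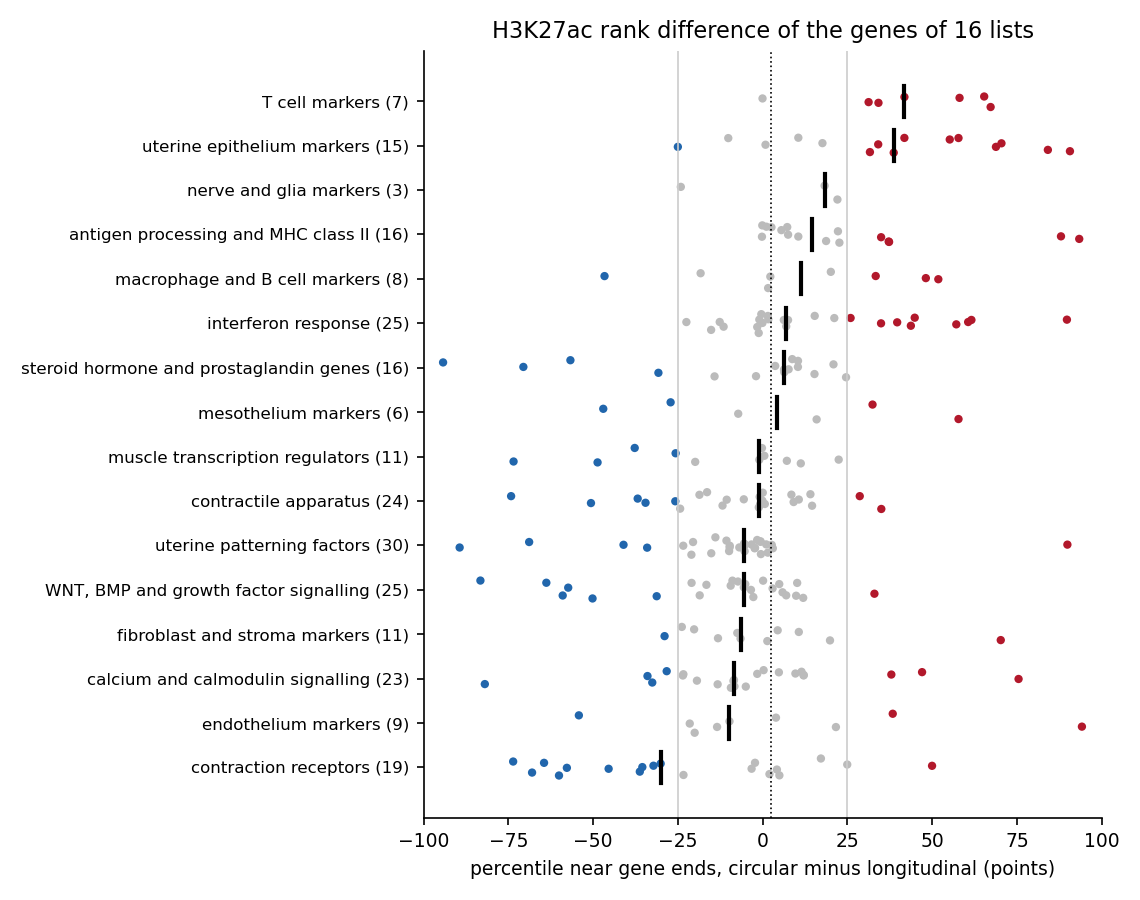
Rank difference near gene ends (GD15M_CM minus GD15M_LM, percentile points) for each gene of the 16 lists with a peak near an end in at least 1 layer (number in brackets). Red and blue points are called genes, black bars list medians, and the dotted line the median over all genes (2.38). Contraction receptors sit lowest (median -30.1), and T cell markers (41.8) and uterine epithelium markers (38.6) sit highest. The points are of the full lists, and with equal bases these 3 medians were -55.5, 0 and 15.7, against -5.53 over all genes.

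Of the interferon response genes, 22 were longer in GD15M_CM and 3 in GD15M_LM, most of them by less than a call. Genes in general were also longer in GD15M_CM, with a median log2 length ratio of 0.319 over all genes and 0.752 in this list. Of 25 genes, 9 were called higher there by rank (all genes 18.8%) and none in GD15M_LM, and 6 were called longer there (all genes 8.79%) and none in GD15M_LM. The summed acetylated length was 140 kb in GD15M_CM, 73.7 kb in GD15M_LM and 92.6 kb in CD15M_CM. IRF2, an interferon regulatory factor, had 30.5 kb in 40 peaks in GD15M_CM and 8.03 kb in 8 peaks in GD15M_LM, with percentiles of 93.6 and 49.95. NLRC5, the activator of MHC class I genes, had 9.44 and 2.97 kb and percentiles of 70.1 and 13.0, with 1.995 kb and no end peak in CD15M_CM. OAS1, an antiviral enzyme, had 4.65 kb and none in GD15M_LM. IFIT3, another antiviral gene, was at 99.9 and 10.2, and IRF9, a partner of STAT2, at 98.5 and 53.7. IRF8, IFNAR2, RSAD2 and CXCL10 made up the 9. STAT2, a transcription factor of the interferon response (3.73 against 1.67 kb), and IFNAR1, a receptor chain (4.45 against 1.56 kb), were called longer in GD15M_CM. The length call of STAT2 was lost with both equal lists. Its rank went the other way, 42.7 in GD15M_CM against 58.0 in GD15M_LM, and was called for GD15M_LM with both equal lists. GBP1 (95.3 and 93.6) and IRF1 (97.0 and 98.7), targets of interferon gamma, did not reach a call. With equal bases 5 genes were called by rank for GD15M_CM (all genes 11.4%). For GD15M_LM 3 were called (27.2%), STAT2, MX2 and SOCS1. The list median difference went from 6.93 points to 0, while that over all genes went from 2.38 to -5.53. By length 4 genes stayed called (all genes 4.5%), and the summed length stayed longer in GD15M_CM (112 kb).

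Antigen processing and MHC class II genes had the longer acetylation in GD15M_CM at all 16 members, with 61.1 kb in sum against 33.9 kb in GD15M_LM and 32.0 kb in CD15M_CM. Genes in general were also longer in GD15M_CM, with a median log2 length ratio of 0.319 over all genes and 0.804 in this list. Only 2 of the 16 were called longer there (all genes 8.79%), and 0 with equal bases, where the sums were 53.7 and 33.9 kb. By rank 5 of 16 were called for GD15M_CM (all genes 18.8%) and none for GD15M_LM (12.7%). With equal bases 4 (all genes 11.4%) and 1 (27.2%) were called. SLA-DRB1 and SLA-DRA, chains of the class II molecule DR, were at 93.4 and 88.0 in GD15M_CM and had no peak in GD15M_LM or CD15M_CM. CIITA, the activator of class II genes, had 5.78 kb in 10 peaks in GD15M_CM, 1.47 kb in 3 peaks in GD15M_LM and 0.856 kb in CD15M_CM. SLA-DMA, which loads peptides onto class II molecules, was at 92.5, 55.2 and 1.58, and PSMB9, an immunoproteasome subunit, at 91.1, 56.2 and 81.6. At SLA-DRB1, SLA-DRA, CIITA and SLA-DMA the value of GD15M_CM stood above both other lists, and the rank call of CIITA was lost with equal numbers of peaks. The members SLA-DQB1 (90.0 and 67.9), SLA-DOA (84.5 and 65.8), CD74 (89.6 and 82.1) and SLA-DQA1 (51.4 and 51.6) were not called with the full lists. SLA-DQA1 was the 1 gene called for GD15M_LM with equal bases. PSMB8 (97.4 and 87.0), PSMB10 (92.8 and 87.3), TAP1, the peptide transporter (97.4 and 74.8), and SLA-DMB (99.8 and 98.7) were not called, and PSMB8, TAP1 and TAP2 are neighbours that share peaks. B2M, the light chain of class I molecules, was at 99.5 and 99.7, but it has 2 records on chromosome 1 and only the first was read. Class II genes are near-identical to one another in part, so reads may be lost or misplaced among them.

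Immune cell markers were acetylated in part. T cell markers summed to 10.3 kb in GD15M_CM, 3.27 kb in GD15M_LM and 3.64 kb in CD15M_CM over 13 placed genes, and 5 of them, among these CD3E, CD3D, CD8B and PTPRC, had no peak in either layer. CD2 (65.3), CD3G (67.2), CCL5 (58.1), CD4 (44.8 against 2.97), CD8A (34.1) and CD247 (31.2) were ranked higher in GD15M_CM. They were 6 of the 7 genes with an end peak (all genes 18.8%), and only CCL5 stayed called with equal bases (all genes 11.4%). By length CD8A had more acetylated bases in GD15M_LM (0.656 against 0.407 kb), without a call. With equal bases the T cell sums were 4.09 kb in GD15M_CM and 3.27 kb in GD15M_LM. The list median difference went from 41.8 points to 0, while that over all genes went from 2.38 to -5.53. That 0 rests on CD3G, CD8A and CD247, which had no end peak left in either list. LCK, a kinase of the T cell receptor, was at 63.5 in both layers. Macrophage and B cell markers summed to 22.5 and 16.7 kb, with CD14 (87.1 against 39.0), AIF1 (73.6 against 21.8) and CD79B (35.9 against 2.60) ranked higher in GD15M_CM and CD79A (28.4 against 75.1) in GD15M_LM. The call of CD79B was lost with both equal lists. Of the 8 genes of this list with an end peak, 3 were called for GD15M_CM (all genes 18.8%) and 1 for GD15M_LM (12.7%). Their median percentile was 80.4 in GD15M_CM and 57.0 in GD15M_LM. H3K4me3 over the 15 genes of this list went the other way, with median percentiles of 46.9 and 53.9. It was higher in GD15M_LM at 8 genes and in GD15M_CM at 4. With equal bases the sums of this list were 17.9 and 16.7 kb, and its median difference went from 11.2 to -0.54 points (all genes 2.38 to -5.53). The part of these cells in the interferon and class II values was not tested.

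Markers of uterine epithelium were the list with the largest excess in GD15M_CM by length. Of 15 genes, 10 were called longer in GD15M_CM (all genes 8.79%) and none in GD15M_LM, and 9 stayed called with equal bases (all genes 4.5%). The summed length was 91.7 kb in GD15M_CM, 22.5 kb in GD15M_LM and 47.0 kb in CD15M_CM. FOXA2, the transcription factor of uterine glands, had 6.97 kb at percentile 90.6 in GD15M_CM, none in GD15M_LM and 1.72 kb in CD15M_CM. GRHL2, a factor of epithelial identity, had 8.36 kb in 11 peaks, none and 3.81 kb, and SPDEF, a factor of secretory epithelium, had 15.4, 0.741 and 6.68 kb. The keratin genes KRT18 (3.27 kb) and KRT19 (4.77 kb) had no peak in GD15M_LM, and KRT8 had 3.78 and 0.487 kb. The 4 genes FOXA2, GRHL2, KRT18 and KRT19 were thus without any peak in the longitudinal layer. CLDN7 (6.52 against 1.69 kb) and CLDN3 (5.01 against 0.948 kb), of tight junctions, ELF3 (5.10 against 0.705 kb) and ESRP1, a splicing factor of epithelia (3.09 against 0.218 kb), completed the 10. EPCAM (74.9 against 19.7) and CDH1, E-cadherin (76.2 against 7.40), were among the 10 of 15 genes called by rank for GD15M_CM (all genes 18.8%). With equal bases 7 genes were called by rank for GD15M_CM (all genes 11.4%) and 2 for GD15M_LM (27.2%). KRT7 was called for GD15M_LM, at 63.0 in GD15M_CM and 88.1 in GD15M_LM. H3K4me3 was higher in GD15M_CM at all 15 genes, with median percentiles of 79.3 and 58.3.

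**Figure D5:**
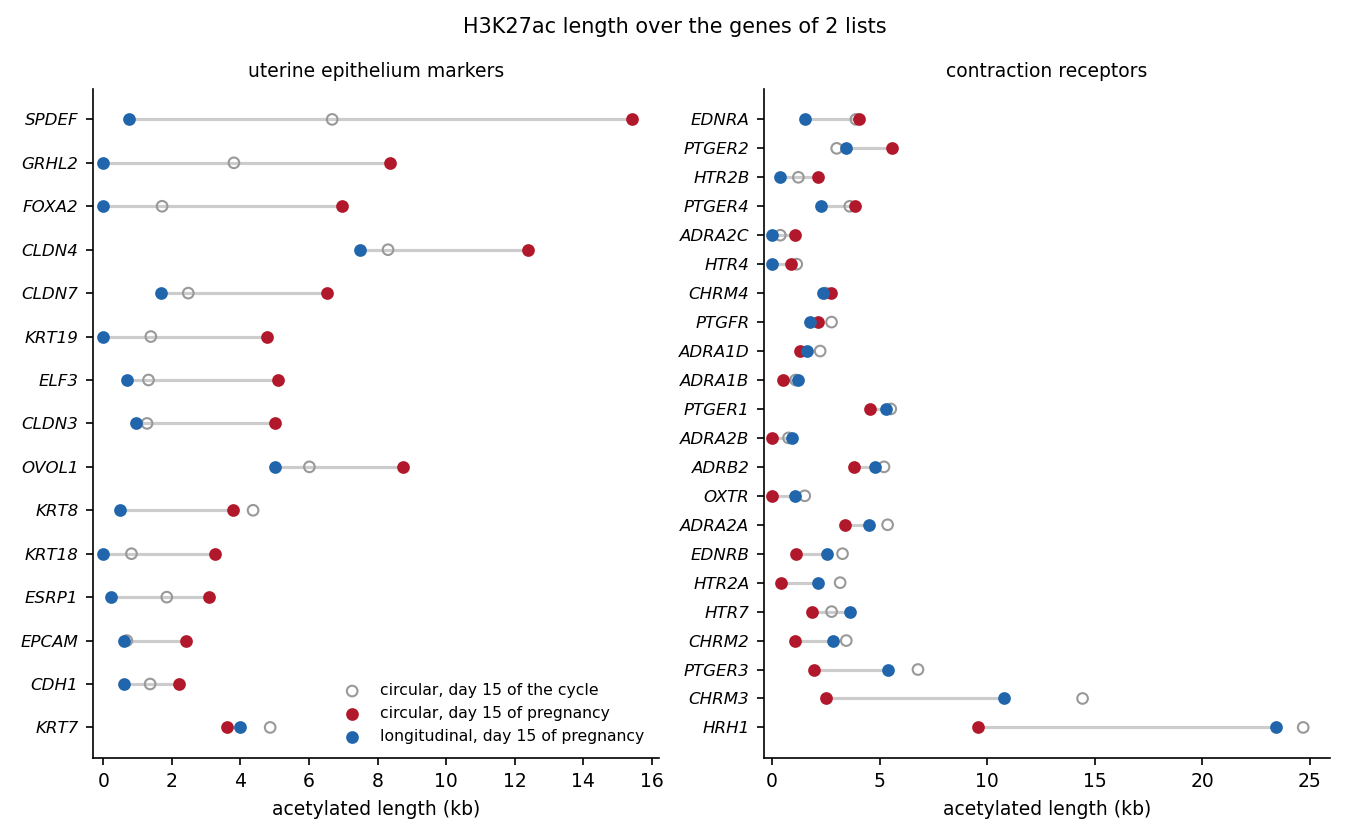
Acetylated length (kb) of the markers of uterine epithelium (left) and of the contraction receptors with a peak (right) in GD15M_CM (red), GD15M_LM (blue) and CD15M_CM (open). At FOXA2, GRHL2, KRT18 and KRT19 the blue point is at 0, while at CHRM3, PTGER3 and HRH1 the red point is the lowest of the 3.

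Of the other lists, a pair of genes that epithelium also makes is given here, chosen after their values were seen. PAX2, a factor of the epithelium that forms the reproductive tract and kidney, had 19.1 kb in 18 peaks at percentile 89.9 in GD15M_CM, none in GD15M_LM and 3.36 kb in CD15M_CM. SOX17, listed here with endothelium but also made by uterine glands, had 4.06 kb at percentile 94.1, none in GD15M_LM and 1.87 kb. Neither was acetylated in the longitudinal layer. The part of epithelial cells in any GD15M_CM value of this report, including the long genes and the class II genes above, was not tested.

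For the other cell types, endothelium markers summed to 48.1 kb in GD15M_CM and 22.7 kb in GD15M_LM. With equal bases these sums were 28.5 and 22.7 kb. TEK, TIE1, VWF and SOX17 were called longer in GD15M_CM, of which SOX17 stayed with equal bases. By rank SOX17 and FLT1 were called for GD15M_CM and SOX18 for GD15M_LM. Fibroblast and stroma markers summed to 96.6 and 123 kb and were longer in GD15M_LM at 10 of 12 genes, none by enough for a call, while PDGFRB was ranked higher in GD15M_LM (77.8 against 48.8) and MFAP5 in GD15M_CM, on a peak that reached only 5 bases into its window. Mesothelium markers were near even in sum (28.6 and 23.5 kb), with LRRN4 and ALDH1A2 ranked higher in GD15M_LM and BNC1 and KRT19 in GD15M_CM. Of 8 nerve and glia markers placed, 4 had no acetylated base in either layer, and NGFR was longer in GD15M_LM (6.50 against 1.79 kb) and ERBB3 in GD15M_CM (7.05 against 2.94 kb).

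Uterine patterning factors were highly ranked in both layers. The homeobox genes HOXA7 to HOXA13 on the list were at 95.5 to 99.3 in GD15M_CM and 97.8 to 99.9 in GD15M_LM, and HOXD8 to HOXD11 at 93.3 to 99.6 and 96.9 to 98.6. Small differences went mostly one way, with 25 of 30 genes at the higher percentile in GD15M_LM and 26 of 31 longer there, and neighbouring HOX genes share peaks. The list median difference was -5.43 points against 2.38 over all genes, and the median log2 length ratio, GD15M_CM over GD15M_LM, -0.194 against 0.319. By rank 4 of the 30 were called for GD15M_LM, a share near that of all genes (12.7%). They were TBX18, a T-box factor (no peak against 89.4), HOXC8 (no peak against 68.9), PRRX1, a factor of mesenchyme (55.4 against 96.4), and TCF21 (57.0 against 91.1). HOXC10 was called for GD15M_LM by length (1.57 against 3.803 kb). PAX2 was the only 1 of this list called for GD15M_CM (all genes 18.8% by rank). TBX18 was at 23.9 in CD15M_CM, nearer to GD15M_CM than to GD15M_LM, unlike PRRX1 (94.5) and TCF21 (96.2).

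Among WNT, BMP and growth factor genes, 6 of 25 were called higher in GD15M_LM by rank (all genes 12.7%) and 1, TGFB1, in GD15M_CM. The secreted WNT inhibitors SFRP1, SFRP2 and DKK2 were called longer in GD15M_LM, and SFRP1 and SFRP2 also by rank. SFRP1 had 10.8 kb in 17 peaks in GD15M_LM, 1.34 kb in 2 peaks in GD15M_CM and 12.0 kb in CD15M_CM. SFRP2 had 2.48, 0.254 and 2.79 kb, and DKK2 had 3.41, 0.206 and 2.95 kb. All 3 inhibitors were longer in GD15M_LM and CD15M_CM than in GD15M_CM. DKK3, FZD1, WNT7A and BMP5 were the other 4 of the 6 genes ranked higher in GD15M_LM, and PDGFC, a platelet-derived growth factor, was longer there (7.87 against 3.73 kb). LEF1, a transcription factor of the WNT pathway, went the other way, with 11.2 kb in 19 peaks in GD15M_CM, 2.50 kb in 4 peaks in GD15M_LM and 8.06 kb in CD15M_CM.

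Of 16 steroid hormone and prostaglandin genes with an end peak, 4 were called for GD15M_LM by rank (all genes 12.7%) and none for GD15M_CM (18.8%). With equal bases 6 (all genes 27.2%) and none (11.4%) were called. ESR1, estrogen receptor alpha, had 32.9 kb in 51 peaks in GD15M_CM, 13.6 kb in 15 peaks in GD15M_LM and 32.6 kb in CD15M_CM, and was not called with equal numbers of peaks. ESR2, estrogen receptor beta, had no peak in GD15M_CM and 0.807 kb in GD15M_LM. PTGS2, which makes prostaglandin H2, was at 10.4 and 81.0, HSD17B1, which makes estradiol, at 38.6 and 69.3, and NR3C2 is described above. The list median difference was 6.32 points with the full lists and -6.56 and -17.2 points with equal numbers and equal bases. Over all genes it was 2.38, -1.44 and -5.53 points.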

How the data were processed

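CUT&Tag of H3K27ac was analysed from peak lists. Per the labels' processing notes and the study's methods, the authors aligned reads with BWA (0.7.17-r1188), filtered them with SAMtools (1.9) and Picard (2.8.3), and called peaks with MACS2 (2.2.6) on both gilts together, with IgG as control. The deposited lists hold a fold enrichment (a ratio over IgG) and a -log10 p-value for each peak. The header of the latter was unreadable, and it was identified from its values. Counts of reads are not in the lists, so no precision per animal was derived from depth here. Peaks on chromosomes 1 to 18, X and Y were used, and genes named for the largest differences were taken from all of these but Y. Coordinates are 1-based on Sscrofa11.1, with genes from the RefSeq table, which has no strand or exons. Percentiles, overlaps (at least 1 base) and covered bases were computed with Python 3.11.15, pandas 2.3.3, NumPy 2.4.6 and statsmodels 0.14.6, and tested on simulated peaks, where 0 of 400 covered lengths and 0 of 100 gene ranks differed from the known answers.

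Named genes were the 8 with the largest difference per direction in rank, length and distal length that stayed called with equal numbers of peaks, the 4 strongest distal peaks without a peak of the other layer within 1 kb, all called members of the gene lists, and the members the study names. The members and lists were chosen with earlier results of these data known. Alternatives were equal numbers of peaks, equal bases, a strict threshold, joined peaks, 50% overlap, a 1 kb window, ranks by -log10 p and larger calls. Of 324 list entries, 12 had no placed gene of that symbol and were not analysed here (MRTFA, MRTFB, IRAG1, ZAP70, MSLN, ITLN1, MUC16, EGFL7, COL6A1, S100B, TUBB3 and PAX8). No sequences were used here. A few genes and peaks that meet the rule are not reported here.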

Additional observations from a re-analysis of the deposited data

Results flagged for a closer look

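Peaks on scaffolds that are not placed on a chromosome were left out of all comparisons and were flagged as signal in data outside the main measurement. GD15M_CM had 1002 such peaks on 51 scaffolds (1.25% of its list, median fold enrichment 3.23), and GD15M_LM had 831 on 40 scaffolds (1.46%, median fold enrichment 3.52).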

How the results depend on the processing

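No paired analysis was possible because the lists were called on pooled gilts and carry no replicate, and leaving out a gilt was not possible for the same reason. The cause of the changes below was not tested. The equal lists only remove GD15M_CM peaks and rank the remaining ones again. GD15M_LM calls could therefore not be lost under them, and rank differences moved toward GD15M_LM by construction. Shares of peaks without a partner (GD15M_CM near gene ends, GD15M_CM distal, GD15M_LM near, GD15M_LM distal) were 25.1, 49.1, 23.0 and 46.8% with equal numbers, 18.9, 43.1, 28.4 and 55.2% with equal bases, 34.9, 63.1, 43.7 and 68.4% at the strict threshold (fold enrichment from 5 upward with -log10 p from 10 upward), and 42.1, 65.3, 23.2 and 46.5% with 50% overlap. Joining peaks under 1 kb apart gave 22.8, 55.0 and 12.6% for the first 3, and a 1 kb window gave 20.8, 10.9 and 34.2% for GD15M_CM near, GD15M_LM near and GD15M_LM distal. The distal share was above the near share in both layers under every one of these settings. Genes ranked higher in GD15M_CM numbered 1917 with equal bases and 1897 at 40 points. Those ranked higher in GD15M_LM numbered 3519 with equal numbers, 4592 with equal bases, 3951 at the strict threshold, 1341 by -log10 p and 1252 at 40 points. The median difference reversed to -1.44 with equal numbers, -5.53 with equal bases and -6.74 points at the strict threshold. Genes longer in GD15M_CM numbered 808 with equal bases and 305 at 4-fold and 4 kb, and those longer in GD15M_LM 500 with equal numbers, 774 with equal bases, 1464 at the strict threshold and 34 at 4-fold and 4 kb. By distal length they numbered 628 (equal numbers), 450 (equal bases), 237 (strict) and 278 (4-fold and 4 kb) for GD15M_CM, and 402, 572 and 36 for GD15M_LM with equal numbers, equal bases and 4-fold and 4 kb. Of the named genes COBL reversed, to -1.01 kb at the strict threshold, where SORL1 fell to 1.26 and JARID2 to 0.767 kb. With a 1 kb window the rank differences of RCSD1 and HEMGN were 0, and with joined peaks that of ABCC11 was 10.8 points.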

Other observations

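In windows of 200 kb along the named chromosomes, acetylated length was compared without regard to genes, and the windows named here were chosen after their values were seen. Of 7967 windows, GD15M_CM had at least 10 kb more in 526 and GD15M_LM in 65, and with equal bases these numbers were 162 and 176. The window of the HOXB cluster, genes of body-axis patterning (chromosome 12, 24800001 to 25000000), had 56.8 kb in GD15M_CM, 14.9 kb in GD15M_LM and 40.9 kb in CD15M_CM, and still 56.5 kb in GD15M_CM with equal bases. The HOXA and HOXD genes of the report were described by percentile near gene ends, not by length in windows, so this window was not compared with them. On the side of GD15M_LM, the window of COL4A2, a basement membrane collagen (chromosome 11, 77000001 to 77200000), had 56.4 kb in GD15M_CM, 94.4 kb in GD15M_LM and 91.7 kb in CD15M_CM.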
